A study of Meloidogyne incognita with 6 samples.

Results

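In the root-knot nematode Meloidogyne incognita, many gene models share an ID stem and differ only in a final lower-case letter, such as Minc17603a and Minc17603b. Of the 20365 rows of the deposited expression table, 1932 carried such a letter, on 779 stems. A stem was kept when at least 2 of its lettered rows were above 0 FPKM (fragments scaled by model length and by the library's counted reads) in at least 1 library. This gave 126 stems with 255 member rows, of which 123 stems had 2 rows and 3 stems had 3 rows above 0. The members were thus chosen by their FPKM being above 0, so the presence of reads on at least 2 rows is not a result. The question was how each row's share of the summed FPKM of its stem, called the balance of the stem, compared between middle and early second-stage juveniles (J2).

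The samples were 3 libraries of middle J2 and 3 libraries of early J2, all from wild-type animals with no treatment named, and all made from Trizol-extracted total RNA with a standard Illumina preparation. The labels do not define the stages, the number of juveniles per library or the host plant. They also do not say that replicates came from separate cultures, and p-values therefore reflect only how far these 6 libraries differ, in part perhaps for technical reasons. The read counts behind the FPKM values were recovered from their whole steps, and the FPKM denominators were 5305983 to 7436406 reads. In these whole-animal samples, fewer cells of a type and less RNA per cell cannot be told apart.

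As background, the J2 is the infective stage of root-knot nematodes: it hatches in the soil, does not feed until it has entered a root, and lives on its reserves until then. In nematode gene sets a trailing letter commonly marks alternative transcript models of the same locus, which differ in the exons, start or end that they use. M. incognita reproduces without meiosis, and its genome holds diverged copies of many regions, so closely similar gene copies are common. The deposited table does not say what its letters stand for, and it pairs the IDs with no product, position or sequence. How reads that match several models were divided is not given in the sources used here, so a row's level may include or lack reads that belong to its partner.

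The member rows carried the letter a in 108 cases, b in 111, c in 25, d in 8, e in 2 and f in 1. The same 126 stems held 57 further rows, in 39 stems, that were listed at 0 in all 6 libraries. The rest of the lettered stems had 1 row above 0 (361 stems) or none (292 stems). Of all 779 stems, 4 have only 1 lettered row in the table. The leading row, defined as the row with the highest mean FPKM, carried the letter a in 90 stems, b in 19, c in 12, d in 4 and f in 1. It was the longer model in 91 stems, the shorter in 33 and of equal recovered length in 2. Among the 52 stems in which the 2 highest rows each had at least 10 reads, the leading row was the longer in 38 and the shorter in 14. The median recovered length was 1346 bases for leading rows and 953 bases for the second rows, against 885 bases for unlettered rows above 0.

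The recovered lengths of lettered rows differed in kind from those of the other rows. Among rows with at least 10 reads, 65 of 168 member lengths (38.7%) were multiples of 3, as were 121 of 262 lengths (46.2%) of rows that were alone above 0 in their stem. Of the unlettered rows, 10654 of 13958 lengths (76.3%) were multiples of 3. A coding sequence has a length divisible by 3, so most lettered lengths are not those of whole coding sequences alone. Lengths of rows with few reads are less certain, since counts with a common factor give too short a length. The recovery was tried on simulated rows only for lengths that are multiples of 3.

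In most stems almost all of the expression lay on the leading row. Its share of the stem's mean FPKM had a median of 97.5%. It was at least 99% in 41 stems, 90 to 99% in 42, 70 to 90% in 23 and under 70% in 20. The median level was 14.3 FPKM for leading rows and 0.178 FPKM for second rows. The second row rested on a median of 7 reads over all 6 libraries, against 899.5 reads for the leading row. It had under 10 reads in 73 stems and 1 read in 19. In 29 stems the second row reached a mean of 1 FPKM. Leading rows were above 0 in all 6 libraries in 106 stems, and second rows in 45. Per library, second rows were above 0 in 77 to 85 stems in middle and in 77 to 87 stems in early J2.

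**Figure D1:**
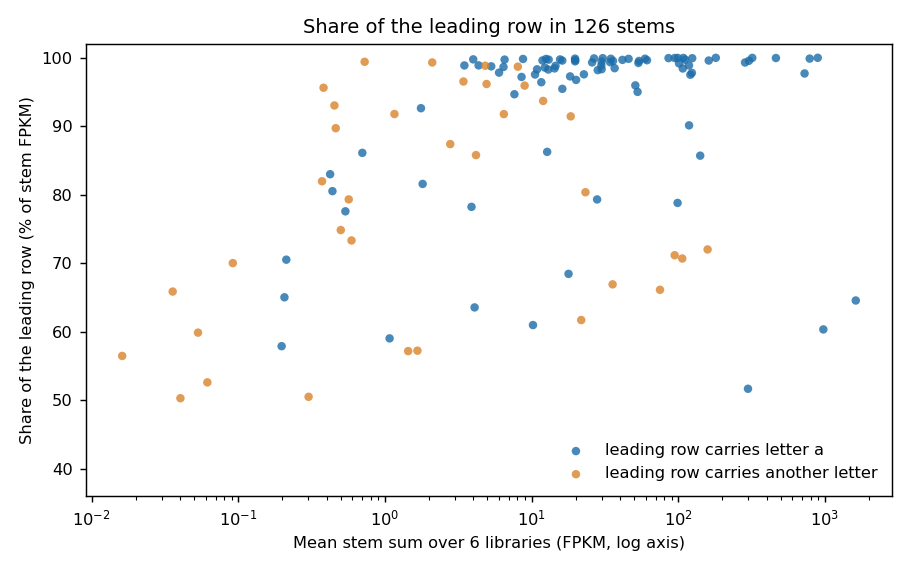
Share of the leading row in the stem's FPKM (y axis, percent of the mean over 6 libraries) against the mean summed FPKM of the stem (x axis, log scale), 1 point per stem, blue where the leading row carries the letter a and orange where it carries another. Most stems above a few FPKM lie near 100%, and 20 stems lie under 70%.

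A few well-expressed stems were shared more evenly. Minc14512, named after its values were seen, was the most even stem above 1 FPKM, with its row a holding 51.7% of the mean. Minc14512a had 149, 137 and 159.9 FPKM in middle and 155, 179 and 147 FPKM in early J2. Minc14512b had 132, 116 and 151 FPKM in middle and 154, 167 and 147 FPKM in early J2. The rows overlapped in level and so did the stages. The row with the higher FPKM was not always the row with more reads, because FPKM divides by length. In 7 stems another row had more reads than the leading row. Minc14512 is 1 of these, with 4543 reads on row a of 803 bases and 7477 on row b of 1410 bases.

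Just inside the rule were stems whose second row had hardly any reads. Minc02686b reached 0.0261 FPKM in a single library (1 read), beside Minc02686f at means of 0.732 and 0.714 FPKM in middle and early J2. In Minc09168 each of the rows c and d had 1 read, both in early J2, and in Minc05278 row d had 1 read in each stage beside 22 reads of row b. Just outside were stems with 1 row above 0 at similar levels: Minc07845b reached 0.0559 FPKM (4 reads), Minc06365d 0.0655 FPKM (2 reads) and Minc01698b 0.0673 FPKM (1 read). The border of the rule is therefore drawn by counts of 1 to a few reads.

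Together the 255 rows held 1.10 ± 0.0451% of the FPKM sum in middle and 1.17 ± 0.0165% in early J2 (SD, n = 3). Of these rows, 130 reached a mean of 1 FPKM over the 6 libraries and were tested on log2(FPKM + 1) together with the whole table. In middle relative to early J2, 11 rose and 11 fell (limma, Benjamini-Hochberg adjusted p under 0.05 over 13142 rows); SE is the standard error of a log2 change throughout. That is 16.9% of the tested rows, against 18.4% of all rows tested, of which 9.32% rose and 9.10% fell. Middle and early values were fully separated in 54 of the 130 rows (41.5%), against 38.4% of all rows. The median log2 fold change was 0.027 over the 130 rows and -0.0068 over the table. Changes of at least 2-fold numbered 8 of 130, against 6.23% of all rows. By these counts the member rows changed about as often as any row.

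The 22 changed rows lay in 20 stems: 18 were leading rows (of 101 tested) and 4 were second rows (of 29 tested). Stems with both rows changed were Minc02089, in which both fell, and Minc06013, in which both rose. Minc02089b, among the 4 second rows, reached the filter on the mean only through early J2, so nothing is read from its call. Minc18543b, among the 18 leading rows, reached it only through middle J2, and nothing is read from its call either. Opposite calls were possible only in the 29 stems with 2 tested rows. None of these had a row that rose and another that fell past the threshold. The clearest rises were those of Minc17603b, described with its stem below, and Minc15858a. Minc15858a had 395, 352 and 382 FPKM in middle and 222, 172 and 177 FPKM in early J2. All middle libraries lay above all early libraries, with a log2 change of 0.98 (SE 0.11; limma, adjusted p = 0.00118). Its partner Minc15858b, at 2.51 ± 1.35 FPKM in middle and 1.51 ± 0.430 FPKM in early J2 (SD, n = 3), overlapped between the stages and did not pass (limma, adjusted p = 0.481). The share of row a was 99.3% in middle and 99.2% in early J2.

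Minc06013 was among the 5 stems with the highest mean level, at 976 FPKM over its rows a and b. Minc06013a had 823, 762 and 749 FPKM in middle and 478, 321 and 401 FPKM in early J2, a log2 change of 0.98 (SE 0.14; limma, adjusted p = 0.00348). Minc06013b had 588, 564 and 644 FPKM in middle and 100.5, 183 and 243 FPKM in early J2, a log2 change of 1.85 (SE 0.28; limma, adjusted p = 0.00391). Neither row overlapped between the stages. Row b held 43.5 ± 2.42% of the stem in middle and 30.5 ± 11.4% in early J2 (SD, n = 3). The early libraries differed widely among themselves, with 17.4% in replicate 1 and 36.3% and 37.7% in replicates 2 and 3. The change in balance did not pass, with a log2 ratio change of row a over row b of -0.88 (SE 0.38; limma, adjusted p = 0.189).

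To compare the balance of a stem between the stages, the log2 ratio of a row to the summed other rows of its stem, with 1 FPKM added to either side, was tested in 104 stems (110 ratios) whose sum had a mean of at least 1 FPKM. The other 22 stems were too low. The fit also held 13630 ratios of unlettered rows with consecutive ID numbers, which give the background. The balance changed in 10 stems, with 12 of the 110 ratios (10.9%) past the threshold against 12% of all ratios (limma, adjusted p under 0.05 over 13740 ratios). The 10 include Minc18543, whose sum reached the filter only through middle J2, so nothing is read from its call. At an unadjusted p under 0.05 there were 21 of 110. The share of all ratios at that cut was not counted, so nothing is read from this number. The median absolute change was 0.25 for ratios within stems and 0.34 for consecutive pairs on the log2 scale. With at least 1 FPKM on both sides, a setting chosen after seeing the data, the medians were 0.35 within stems and 0.32 for consecutive pairs, so their order depends on this filter. The shares of 10.9% and 12% come from unlike sets. At least 1 FPKM on both sides was reached by 30 of the 110 ratios within stems and 10079 of the 13630 consecutive ratios. Nothing is therefore read from how close these shares are. The count of 10 stems depended on the libraries and on the added FPKM. Leaving out middle replicate 1, middle replicate 2 or early replicate 1 gave 6 stems, and leaving out early replicate 3 gave 5. With 0.1 FPKM added the count was 3.

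**Figure D2:**
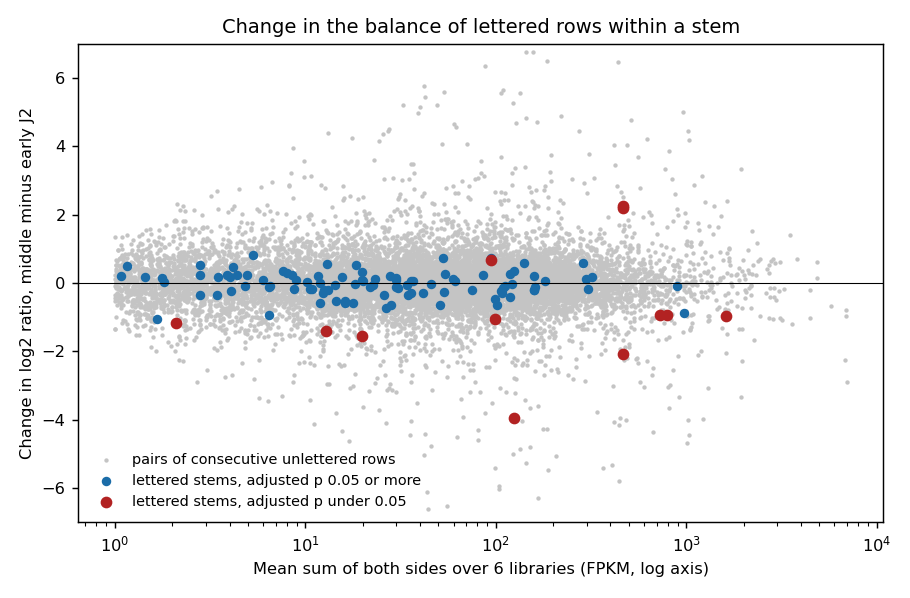
Change in the log2 ratio between a row and its partner (y axis, middle minus early J2) against the mean summed FPKM of both sides (x axis, log scale), for ratios within lettered stems (blue, or red where the adjusted p is under 0.05) and for consecutive unlettered rows (grey). The red points run from -3.95 to 2.26, and 2 grey pairs lie outside the plotted range.

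Where the partner is near 0, the added FPKM turns any change of the leading row into a change of the ratio. The 10 stems were therefore divided by the level of the second row. In 7 of them it had a mean of at least 1 FPKM, out of 29 such stems. In the other 3 it was lower, out of 75. Restricted to ratios with at least 1 FPKM on both sides, the same 7 stems passed among 30 ratios (23.3%), against 15.0% of all ratios so restricted. That filter is on the mean over both stages. Minc02089b and Minc11928b, with means of 0.189 and 0.835 FPKM in middle J2, passed it only through early J2. Minc15975b, with an early mean just under 1 FPKM, passed it only through middle J2. Nothing is therefore read from the difference between these shares. On the linear scale of shares in percent, 5 of 104 stems passed, against 1202 of 13563 ratios in the whole table (8.86%). These sets too are unlike, so nothing is read from the difference. Of these 5 stems, 4 were among the 10.

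Minc17603 was the stem with the highest level, at a mean of 1624 FPKM over its rows, and its short row rose. Minc17603b, of 159 bases, had 891, 667 and 835 FPKM in middle and 352, 392 and 318 FPKM in early J2. Minc17603a, of 636 bases, had 1168, 1074 and 1129.8 FPKM in middle and 959, 1032 and 929 FPKM in early J2. Both rows were higher in every middle library than in any early library, but only row b passed, with a log2 change of 1.16 (SE 0.13; limma, adjusted p = 0.00118). For row a the log2 fold change was 0.21 (limma, adjusted p = 0.186). Row b held 43.3, 38.3 and 42.5% of the stem in middle and 26.8, 27.5 and 25.5% in early J2. The ratio of row a to row b changed by -0.96 (SE 0.16; limma, adjusted p = 0.00962). This change passed in all 15 alternative settings.

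Minc01389, at a lower level, also had a shorter row that rose beside a longer row that did not pass. Unlike Minc17603a, its longer row lay lower in every middle library than in any early library. Minc01389b (1565 bases) had 30.9, 30.3 and 21.7 FPKM in middle and 16.2, 12.7 and 14.2 FPKM in early J2, a log2 change of 0.89 (SE 0.17; limma, adjusted p = 0.0099). Minc01389a (4586 bases) had 67.5, 77.5 and 76.1 FPKM in middle and 81.8, 80.4 and 84.7 FPKM in early J2 (limma, adjusted p = 0.221). Row b held 31.4, 28.1 and 22.2% of the stem in middle and 16.5, 13.6 and 14.3% in early J2. Middle replicate 3 lay nearest to the early libraries. The ratio of row a to row b changed by -1.05 (SE 0.20; limma, adjusted p = 0.0158), and this call was lost without middle replicate 1, early replicate 2 or early replicate 3.

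In Minc14933 the shorter row fell while the longer row did not pass. Minc14933b (661 bases) had 41.6, 45.9 and 53.6 FPKM in middle and 92.5, 81.8 and 88.5 FPKM in early J2, a log2 change of -0.89 (SE 0.11; limma, adjusted p = 0.00154). Minc14933a (2246 bases) had 24.8, 25.7 and 24.8 FPKM in middle and 28.2, 30.6 and 29.6 FPKM in early J2 (limma, adjusted p = 0.145). Row a held 35.0 ± 2.94% of the stem in middle and 25.2 ± 1.91% in early J2 (SD, n = 3). The ratio of row a to row b changed by 0.67 (SE 0.16; limma, adjusted p = 0.0352). With the replicate number as a block the adjusted p was 0.0669, and without any 1 library other than middle replicate 3 the ratio did not pass.

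In Minc07853 the abundant row fell, and the row of low level did not pass. Minc07853a (1847 bases) had 547, 557 and 618 FPKM in middle and 861, 813 and 866 FPKM in early J2, a log2 change of -0.56 (SE 0.09; limma, adjusted p = 0.00525). Minc07853b (408 bases) had 18.5, 19.5 and 18.9 FPKM in middle and 16.1, 12.6 and 14.8 FPKM in early J2 (limma, adjusted p = 0.0943), on 139 and 112 reads. Its share was 3.21 ± 0.216% in middle and 1.68 ± 0.156% in early J2 (SD, n = 3), with no overlap. The ratio of row a to row b changed by -0.93 (SE 0.13; limma, adjusted p = 0.0055) and passed in all 15 alternative settings.

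In Minc02089 and Minc11928 the leading rows fell. Minc02089a (1168 bases) had 2.10, 1.31 and 2.25 FPKM in middle and 235, 183 and 304 FPKM in early J2, the largest change of any member row, with a log2 change of -6.37 (SE 0.21; limma, adjusted p = 6.41e-06). Minc02089b (603 bases) had 0.313, 0.254 and 0 FPKM in middle, on 2 reads, and 5.75, 5.29 and 4.91 FPKM in early J2, on 60 reads. For row b the log2 change was -2.42 (SE 0.25; limma, adjusted p = 7.62e-04). Row a held 87.0, 83.8 and 100% of the stem in middle and 97.6, 97.2 and 98.4% in early J2, so the shares overlapped between the stages. The log2 ratio changed by -3.95 (SE 0.31; limma, adjusted p = 5.18e-04), but with 0.1 FPKM added it changed by -2.46 (limma, adjusted p = 0.102) and on the linear scale the adjusted p was 0.375. With ratios of recovered reads it changed by -2.72 (limma, adjusted p = 0.0495), and it passed in 13 of the 15 alternative settings. Row b had 2 reads in middle J2 in all, and it reached the row filter of a mean of 1 FPKM only through early J2. Nothing is therefore read from the call of row b.

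Minc11928a (882 bases) had 3.85, 3.48 and 1.67 FPKM in middle and 14.7, 18.9 and 23.5 FPKM in early J2, a log2 change of -2.35 (SE 0.28; limma, adjusted p = 0.00134). Minc11928b (855 bases) had 0.661, 1.08 and 0.767 FPKM in middle and 1.42, 3.94 and 2.67 FPKM in early J2 (limma, adjusted p = 0.0816). Row a held 76.8 ± 8.39% in middle and 87.9 ± 4.53% in early J2 (SD, n = 3), and the shares overlapped. The change in ratio of -1.40 (SE 0.36; limma, adjusted p = 0.0452) was lost in 11 of the 15 alternative settings.

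In the remaining 4 stems the leading row changed beside a partner with few reads or none. Minc15975a (1430 bases) had 565, 571 and 550.3 FPKM in middle and 1123, 882 and 1030.3 FPKM in early J2, and fell by 0.84 on the log2 scale (limma, adjusted p = 0.00204). Its partner Minc15975b was at 1.12 ± 0.375 FPKM in middle and 0.974 ± 0.250 FPKM in early J2 (SD, n = 3), on 16 and 14 reads. Row a held 99.8% of the stem in middle and 99.9% in early J2. Minc13937a (3038 bases) had 97.8, 134 and 223 FPKM in middle and 795, 621 and 910.5 FPKM in early J2, and fell by 2.41 on the log2 scale (limma, adjusted p = 0.0013). Minc13937b had 0 reads in middle and 7 in early J2. The limit that a count of 0 allows in a single library, 3 reads, is 0.228 to 0.280 FPKM in the middle libraries, beside early values of 0.172, 0.0879 and 0.266 FPKM. Minc13937c had 0, 0.252 and 0 FPKM in middle and 0.284, 0 and 0.331 FPKM in early J2, on 2 and 5 reads. The levels of rows b and c lay below the filter and were not tested. The reads carry no molecular identifiers that the labels name, so such limits cover counting error only.

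Minc09803a had 7.86, 7.96 and 9.65 FPKM in middle and 35.9, 25.8 and 31.5 FPKM in early J2, and fell by 1.75 on the log2 scale (limma, adjusted p = 4.93e-04), while Minc09803c had 0 and 6 reads. Minc18543b had 3.49, 3.07 and 3.36 FPKM in middle and 0.953, 0.710 and 0.942 FPKM in early J2, a log2 fold change of 1.21 (limma, adjusted p = 0.0102), while Minc18543a had 1 and 0 reads. Minc18543b reached the row filter only through middle J2, since its early values all lay under 1 FPKM. Its stem reached the ratio filter likewise, with mean sums of 3.34 FPKM in middle and 0.868 FPKM in early J2. Nothing is read from either call for Minc18543. In Minc13937, Minc09803 and Minc18543 the leading row held at least 99% of the mean FPKM in either stage. The log2 ratios changed by 2.18 for Minc13937b over the other rows of its stem (SE 0.28; limma, adjusted p = 0.00366), by 2.26 for Minc13937c likewise (limma, adjusted p = 0.00377), by -1.56 for Minc09803 (SE 0.27; limma, adjusted p = 0.0114) and by -1.17 for Minc18543 (SE 0.28; limma, adjusted p = 0.0354). For Minc15975 the change was -0.94 (SE 0.20; limma, adjusted p = 0.027). The shares of Minc13937b, Minc09803a and Minc18543a in percent moved in the direction opposite to these ratios, by under 1 percentage point. The share of Minc13937c moved in the same direction as its ratio, by 0.0387 points, and none of these shares passed on the linear scale. With 0.1 FPKM added none of the 4 passed. The call for Minc18543 was also lost without any 1 of the 6 libraries, with limma adjusted p = 0.0688 to 0.109, and with the replicate number as a block (limma, adjusted p = 0.0874). That for Minc15975 was lost without middle replicate 2 or 3 or early replicate 1 or 3, with limma adjusted p = 0.065 to 0.0881.

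**Figure D3:**
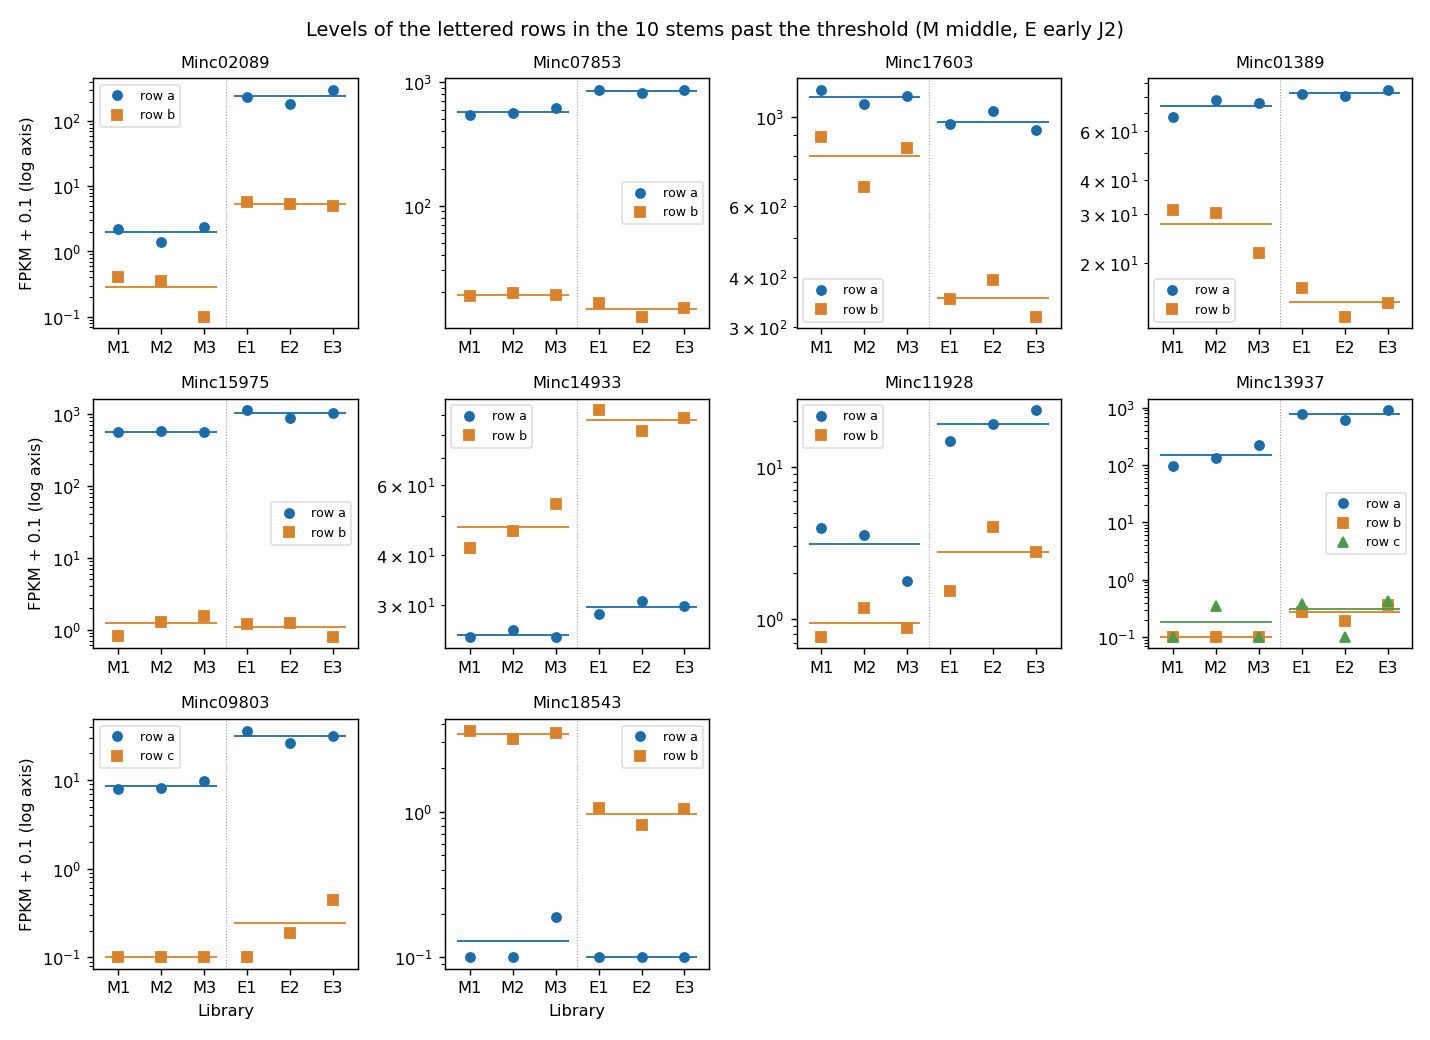
FPKM + 0.1 (y axis, log scale) of each lettered row in the 10 stems whose balance passed the threshold, in the 3 middle (M1 to M3) and 3 early (E1 to E3) libraries; horizontal lines are stage means. Both rows of Minc02089 and Minc11928 lie lower in middle J2, row b of Minc17603 and Minc01389 lies higher, and the lowest rows of Minc13937, Minc09803 and Minc18543 lie at or near 0.

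Both rows of a stem could be followed in 29 stems, in which the 2 highest rows each had a mean of at least 1 FPKM. Their log2 fold changes had the same sign in 17 and opposite signs in the other 12. The median absolute log2 fold change was 0.26 for the leading and 0.29 for the second rows. The balance did not pass in 22 of these stems, with log2 ratio changes of -0.88 to 0.72 (limma, adjusted p = 0.074 to 0.963). A p above the threshold does not show that a balance stayed the same. Minc10127, named after its values were seen, had rows lower in middle J2 with similar shares. Minc10127c averaged 20.1 ± 1.58 FPKM in middle and 27.7 ± 1.19 FPKM in early J2 and passed, and Minc10127b averaged 10.1 ± 1.15 and 13.5 ± 1.504 FPKM and did not (SD, n = 3; limma, adjusted p = 0.026 for row c). Row c held 66.4 ± 1.38% of that stem in middle and 67.3 ± 2.05% in early J2 (SD, n = 3).

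**Figure D4:**
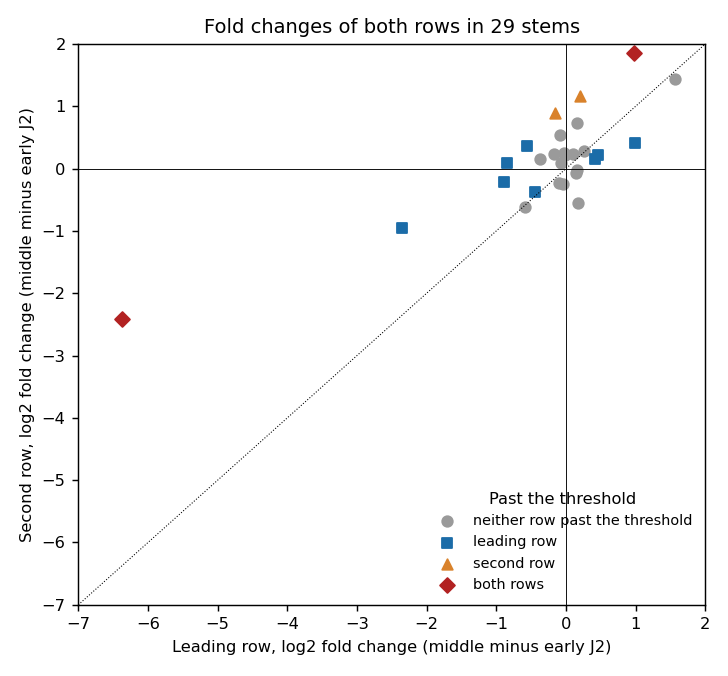
Log2 fold change (middle minus early J2) of the second row (y axis) against that of the leading row (x axis) in the 29 stems with both rows at a mean of at least 1 FPKM, with the marker showing which rows passed the threshold. Minc02089 lies far to the lower left at -6.37 and -2.42, and most stems lie within 1 unit of 0 on either axis.

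The 3 stems with 3 rows above 0 were Minc13937, Minc01522 and Minc11773. In Minc01522 row c (667 bases) led by FPKM, with 109, 138 and 75.7 FPKM in middle and 159, 50.5 and 152 FPKM in early J2. Row a (7323 bases) had 38.3, 30.7 and 52.8 FPKM in middle and 49.2, 45.8 and 46.4 FPKM in early J2, and row b was between 0.268 and 0.839 FPKM in all libraries. Row c held 58.8 to 81.6% of the stem in middle and 52.0 to 76.3% in early J2, a spread between replicates wider than the difference between stages. In Minc11773 row b led with 1.94 ± 0.411 FPKM in middle and 2.94 ± 0.482 FPKM in early J2 (SD, n = 3; limma, adjusted p = 0.262), while rows a and d had 5 and 3 reads in middle and 1 and 6 in early J2. Among the 5 stems of highest level, Minc14803 was carried by row a at 777 ± 212 FPKM in middle and 1011 ± 129 FPKM in early J2 (SD, n = 3; limma, adjusted p = 0.201). Its row b had 2 reads, both in early J2.

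The leading row differed between the stages in 4 stems, of which only Minc01640 had a mean sum of at least 1 FPKM. It is named here after its values were seen. Minc01640c (891 bases) had 0.212, 0.344 and 0.736 FPKM in middle and 0.972, 1.19 and 2.26 FPKM in early J2, on 7 and 26 reads. Minc01640e (4730 bases) had 0.558, 0.843 and 1.25 FPKM in middle and 0.476, 0.412 and 0.739 FPKM in early J2, on 76 and 50 reads. Row c held 27.5, 28.995 and 37.1% of the stem in middle and 67.1, 74.3 and 75.4% in early J2, without overlap. The log2 ratio of row c to row e changed by -1.05 and did not pass (SE 0.29; limma, adjusted p = 0.0578), whereas the share in percent did on the linear scale, with a difference of -41.1 points (limma, adjusted p = 0.019).

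Some stems varied far more between libraries of the same stage than between stages, and they too are named after their values were seen. Across all tested rows, 19 of 13142 (0.145%) had a spread of at least 5-fold on FPKM + 1 within middle J2 and also within early J2. Of these, 4 were member rows, from the stems Minc04476, Minc06301 and Minc15680, out of 130 member rows tested. The median spread within a stage was 1.28-fold in middle and 1.21-fold in early J2 over the member rows. Minc04476a had 197, 219.5 and 22.2 FPKM in middle and 6.74, 277 and 3.68 FPKM in early J2. Minc04476b had 32.1, 36.2 and 3.60 FPKM in middle and 1.21, 47.2 and 0.793 FPKM in early J2. Both rows were thus high in middle replicates 1 and 2 and early replicate 2, and low in the other libraries. The share of row a hardly moved with these levels, at 86.0, 85.8 and 86.0% in middle and 84.8, 85.4 and 82.3% in early J2.

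The rows of Minc06301 and Minc15680 were high and low in the same libraries. Minc06301b had 24.9, 25.1 and 1.45 FPKM in middle and 0.551, 28.3 and 0.428 FPKM in early J2, and Minc06301a had 14.5, 16.1 and 3.78 FPKM in middle and 0.764, 13.5 and 1.52 FPKM in early J2. Here the balance moved with the level: row a held 36.8, 39.0 and 72.3% of the stem in middle and 58.1, 32.3 and 78.0% in early J2. Minc15680b had 18.4, 20.03 and 2.01 FPKM in middle and 1.33, 24.3 and 1.29 FPKM in early J2. Minc15680a had 1.37, 1.77 and 0 FPKM in middle and 0, 1.40 and 0 FPKM in early J2, where the 3 reads that a count of 0 allows amount to 0.299 FPKM in middle replicate 3, 0.316 FPKM in early replicate 1 and 0.245 FPKM in early replicate 3. None of these rows passed between the stages (limma, adjusted p = 0.267 to 0.537 over the 5 rows tested), and a batch that could follow these libraries is not given by the labels.

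**Figure D5:**
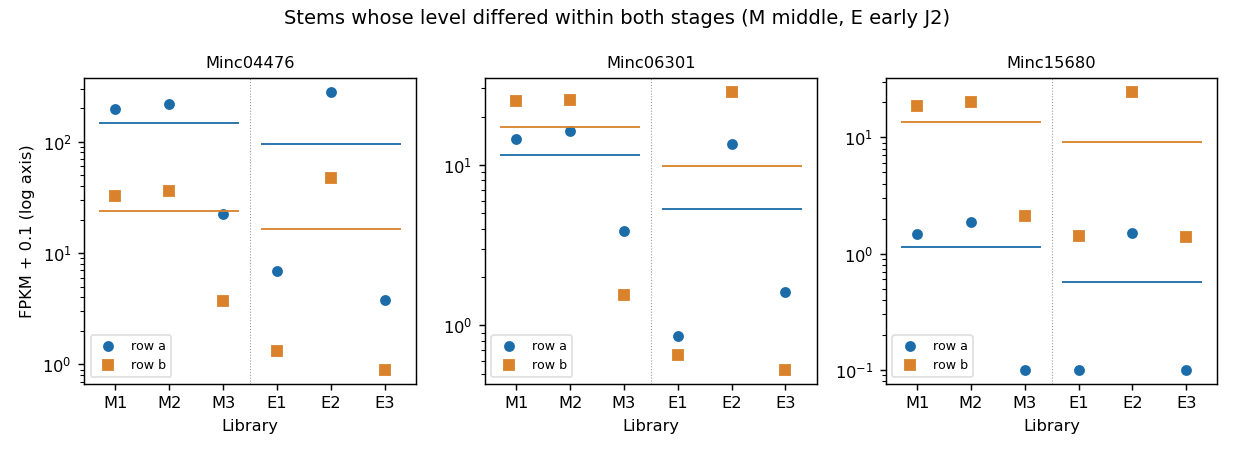
FPKM + 0.1 (y axis, log scale) of rows a and b of Minc04476, Minc06301 and Minc15680 in the 3 middle (M1 to M3) and 3 early (E1 to E3) libraries; horizontal lines are stage means. In each stem both rows are high in M1, M2 and E2 and low in M3, E1 and E3.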

How the data were processed

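The authors deposited FPKM values for 6 libraries. CASAVA and TopHat2 are named, without a version, per the submitters' processing notes; read counter, genome build, annotation and strand setting: not given in the sources used here. A further 16 unnamed columns, 8 of them with numbers, match no sample and were not used. Read counts and lengths were recovered from the whole steps of the FPKM values for all 17197 rows above 0 (tolerance 0.0002 of a count). On 8000 simulated rows all 6 denominators came back, with counts and lengths right in 98.39% of rows with reads. The recovered reads were 99.64 to 99.66% of the denominators.

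Row levels (mean over 6 libraries of 1 FPKM or more) and log2 ratios (sums likewise) were tested by limma 3.58.1 in R 4.3.3 (stage as the term, empirical Bayes with a trend, two-sided, Benjamini-Hochberg over the whole table, threshold 0.05). Fold changes are middle minus early on log2(FPKM + 1), which understates changes of low rows. A ratio within a stem of 2 rows has the first letter on top. A simulated middle against early comparison with 9% biological variation (all rows alike, which may be too favourable) recovered 46.3, 88.1 and 100% of 1.5, 2 and 4-fold changes among 13153 rows, and 6, 53.7 and 97% among 13728 ratios, with 13 false calls among 169 and 7 among 201. Changes of 1.5-fold in a ratio were thus mostly missed in that comparison. How recovery depends on the level of the second row was not tested, and neither was recovery in lettered stems alone. The second row had a mean under 1 FPKM in 75 of the 104 tested stems. Nothing is therefore read from these percentages for the lettered stems.

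The members, lists, tests and naming rule were chosen with earlier results of these data known. Stems are named by a rule: changed balance (the 12 lowest adjusted p at most), the 5 highest levels, 3 rows above 0, opposite calls, the borders of the membership rule, and the rows with the 2 lowest adjusted p that rose and that fell. Tables and figures used Python 3.11.15.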

Additional observations from a re-analysis of the deposited data

How the results depend on the processing

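The count of changed member rows (22) lay between 17 and 27 over 13 alternatives, and the 14 changed rows of the stems named by the rule (Minc10127c is not among them and was not followed) passed with the same direction under every alternative in which they were tested (limma, adjusted p = 4.15e-06 to 0.0465). The 14 rows include Minc02089b and Minc18543b, from whose calls nothing is read. Leaving out 1 library gave 17 to 25 changed rows. The count of stems with changed balance (10) was less steady: 3 with a pseudocount of 0.1 FPKM (Minc01389, Minc07853 and Minc17603), 5 with ratios of recovered reads, 5 on the linear scale of shares, and 5 to 8 without 1 library. The other 6 settings gave 7 to 10. Balances beside near-empty partner rows turned direction: on the linear scale Minc09803 moved by 0.478, Minc13937 (row b) by -0.0217 and Minc18543 by 0.850 percentage points. The uncalled balance of Minc14803, at -0.08, was 1.14 with a pseudocount of 0.1, 0.582 with recovered reads, 0.0285 points on the linear scale and -0.302 to 0.143 without 1 library. That of Minc01522 (row b) was -0.519 to 0.226 without 1 library; the causes were not tested. A replicate block left 24 rows and 7 stems past the threshold. Libraries with the same number had deviations correlated at 0.005, 0.089 and 0.12, against -0.153 to 0.077 for libraries with different numbers. The values 0.089 and 0.12 lay above all of the latter. So few values do not show whether the numbers pair the libraries. Depth limits the second rows, with a median of 7 reads in all.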

Other observations

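The 15 other rows with at least a 5-fold spread within both stages were all unlettered. Of all 19 such rows, 17 had middle replicates 1 and 2 and early replicate 2 above the other 3 libraries, including all 4 member rows. Minc04475, whose ID number precedes that of Minc04476, is among them, at 48.7, 59.6 and 2.77 FPKM in middle and 0.785, 62.4 and 0.731 FPKM in early J2. This order of libraries was noticed in these data, and it follows neither the stages nor the replicate numbers.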
